A study of Mus musculus with 18 samples.

Results

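Mouse chromosomes are acrocentric, with the centromere at the low-coordinate end, and the peaks described here are those of chromosomes 1 to 19 that lie closest to it. In the GRCm38 (mm10) numbering the first 3 Mb of each chromosome is unsequenced, and 0 peaks began before that position. A peak was taken as a member when it ended at or before 5 Mb, which gave 19 windows of 2 Mb beside the centromeric ends, called centromeric windows below. They held 3437 of the 166066 merged peaks of the series (2.07%), against 156662 peaks in the rest of the same 19 chromosomes. At the 5 Mb border the last peak inside and the first outside had 5864 bp between them at the closest, on chromosome 7, and 131544 bp at the farthest, on chromosome 5. On chromosome 14 a peak of 2494 bp lay across the border and was counted outside.

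The peaks come from ATAC-seq, in which a transposase cuts and tags accessible DNA, on mouse embryonic stem cells of the line dTKO. Every library carries the genotype Suv39h1fl/fl ; Suv39h2-/- ; Setdb1fl/fl and the treatment label "+ auxin + dTAG13", the 0 h libraries included, with auxin at 100 μg/ml and dTAG13 at 0.5 μM. Both agents bring about degradation of suitably tagged proteins, but the labels do not say which protein is tagged or whether the line is a single clone. There are 3 libraries at each of 0, 3, 6, 12, 24 and 48 h of treatment, 18 in all. The values are 1 list of merged peak positions pooled over these 18 libraries, with no read count, height or library of origin, so depth is unknown and no time point can be compared. The unit of every test is therefore the chromosome, and the tests speak of differences along the genome in this list and not between cultures. All 8 embryonic stem cell markers looked up, Pou5f1, Nanog and Sox2 among them, had a peak at a gene end, against 1 of 4 fibroblast markers (Col1a2, which lies in the centromeric window of chromosome 6) and 0 of 3 blood markers. Such a peak was common, present at 72.8% of all protein-coding genes of chromosomes 1 to 19, and the marker lists are short.

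DNA next to mouse centromeres consists of satellite repeats packed into constitutive heterochromatin. SUV39H1 and SUV39H2 place trimethylation on lysine 9 of histone H3 there, HP1 proteins bind that mark, and the KMT5B and KMT5C enzymes add trimethylation of lysine 20 on histone H4. SETDB1 places the H3 lysine 9 mark mainly at retrotransposons and along the chromosome arms. The bulk of these satellites lies outside the assembled chromosomes, and the windows show the first assembled DNA. Its repeat content was not analysed, so satellite sequence inside a window cannot be told from other DNA here.

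Genes of that same heterochromatin pathway lie inside the windows. Promoters of 300 bp (250 bp before and 50 bp after the annotated start, RefSeq, GRCm38.p6) are given to show what open and closed gene starts there look like. They are 3 promoters of chromatin genes under a peak and 3 promoters of listed genes without one. Among the latter genes, Tfpi2 has a further promoter, not printed, that lay under a peak. Each printed promoter is written 5′ to 3′ on the strand of the gene, with every CpG dinucleotide in capitals.
Suv39h2, chr2:3474937-3475236, minus strand, 33 CpG, open: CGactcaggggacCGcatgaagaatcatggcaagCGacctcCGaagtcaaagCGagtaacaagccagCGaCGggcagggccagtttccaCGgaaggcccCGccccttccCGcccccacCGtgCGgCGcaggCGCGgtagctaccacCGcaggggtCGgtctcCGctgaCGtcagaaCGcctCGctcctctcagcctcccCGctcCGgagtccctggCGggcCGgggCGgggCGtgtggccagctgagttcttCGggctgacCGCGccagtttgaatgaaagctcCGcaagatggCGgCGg
Kmt5b, chr19:3767639-3767938, plus strand, 38 CpG, open: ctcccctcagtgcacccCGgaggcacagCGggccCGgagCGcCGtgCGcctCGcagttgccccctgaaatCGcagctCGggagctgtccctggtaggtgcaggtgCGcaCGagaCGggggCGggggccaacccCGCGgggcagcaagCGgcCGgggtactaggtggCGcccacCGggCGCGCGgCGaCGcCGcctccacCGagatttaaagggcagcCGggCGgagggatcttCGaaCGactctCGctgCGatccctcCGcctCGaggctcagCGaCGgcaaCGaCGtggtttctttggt
Kmt5c, chr7:4739877-4740176, plus strand, 22 CpG, open: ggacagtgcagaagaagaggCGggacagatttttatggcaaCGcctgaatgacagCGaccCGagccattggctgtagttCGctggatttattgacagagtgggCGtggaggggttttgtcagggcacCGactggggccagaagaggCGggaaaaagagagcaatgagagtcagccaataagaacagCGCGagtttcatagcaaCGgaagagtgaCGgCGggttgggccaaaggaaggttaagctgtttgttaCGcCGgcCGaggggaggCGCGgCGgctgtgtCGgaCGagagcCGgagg
Ucn3, chr13:3945300-3945599, minus strand, 1 CpG, no peak: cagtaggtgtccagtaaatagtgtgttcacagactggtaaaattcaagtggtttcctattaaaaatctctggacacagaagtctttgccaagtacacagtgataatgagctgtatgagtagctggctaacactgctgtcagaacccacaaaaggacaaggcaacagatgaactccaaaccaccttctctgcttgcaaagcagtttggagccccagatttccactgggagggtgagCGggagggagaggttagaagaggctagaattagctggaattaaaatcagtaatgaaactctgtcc
Tbx10, chr19:3992502-3992801, plus strand, 4 CpG, no peak: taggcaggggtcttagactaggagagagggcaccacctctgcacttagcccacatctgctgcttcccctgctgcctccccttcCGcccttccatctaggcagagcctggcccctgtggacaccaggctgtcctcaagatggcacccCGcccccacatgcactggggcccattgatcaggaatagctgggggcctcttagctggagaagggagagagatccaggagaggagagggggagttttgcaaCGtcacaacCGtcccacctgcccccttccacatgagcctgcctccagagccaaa
Tfpi2 (the most upstream of 3 in the table), chr6:3988887-3989186, minus strand, 2 CpG, no peak: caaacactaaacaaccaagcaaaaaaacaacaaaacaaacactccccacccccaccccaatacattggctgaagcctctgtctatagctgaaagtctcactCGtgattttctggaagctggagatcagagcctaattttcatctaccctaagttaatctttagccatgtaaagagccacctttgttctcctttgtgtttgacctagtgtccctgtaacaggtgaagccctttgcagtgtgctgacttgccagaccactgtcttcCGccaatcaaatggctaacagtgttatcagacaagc

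Peaks were on average more closely spaced in the centromeric windows than in the rest of the same chromosomes, but the difference did not pass the adjusted test. The windows had 90.4 ± 37.2 peaks per Mb (mean ± SD, n = 19 chromosomes) and the rest had 66.8 ± 11.9. The density was higher in the window on 14 chromosomes and lower on 5. The mean paired difference was 0.33 ± 0.12 (SE) on the scale of log2(peaks per Mb + 1), a 1.26-fold difference (exact two-sided sign-flip permutation p = 0.0174, 0.0607 after Benjamini-Hochberg adjustment over 7 results). The call turned on single chromosomes. Without chromosome 14 the difference was 0.39 (adjusted exact p = 0.0225), without 15 it was 0.38 (0.0341 by the same exact test), and without 3 or 17 it was 0.36 in both cases (0.0473 and 0.0468, exact). With each of the 19 chromosomes left out of this result in turn, only these 4 cases passed. Adjustment here used the p values of the other results from all 19 chromosomes. The smallest difference came without chromosome 12, at 0.29 (adjusted exact p = 0.117).

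The windows, which are far shorter than the remainders, were spread over a wide range of densities. Chromosome 11 had the densest window with 169 peaks per Mb (rest 105.5), followed by chromosome 7 with 141 (rest 67.0), 8 with 138 (rest 80.6), 19 with 133 (rest 73.2) and 12 with 131 (rest 60.6). At the other end, chromosome 14 had 30 peaks per Mb (rest 54.3), chromosome 15 had 42.5 (rest 66.4) and chromosome 3 had 46.5 (rest 53.1). The remaining windows lay between 65.5 on chromosome 17 and 104 on chromosome 16. The largest relative excess was on chromosome 12, at 1.10 on the log2 scale, and the largest deficit on chromosome 14, at -0.83. Ranked among the 2 Mb windows of their own chromosome, the centromeric windows had a median of 69.3% of the others less dense, and 16 of 19 lay above the median window. That of chromosome 12 was second of 58, that of chromosome 19 was 3 of 29 and that of chromosome 14 was 43 of 60, counted from the densest.

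**Figure D1:**
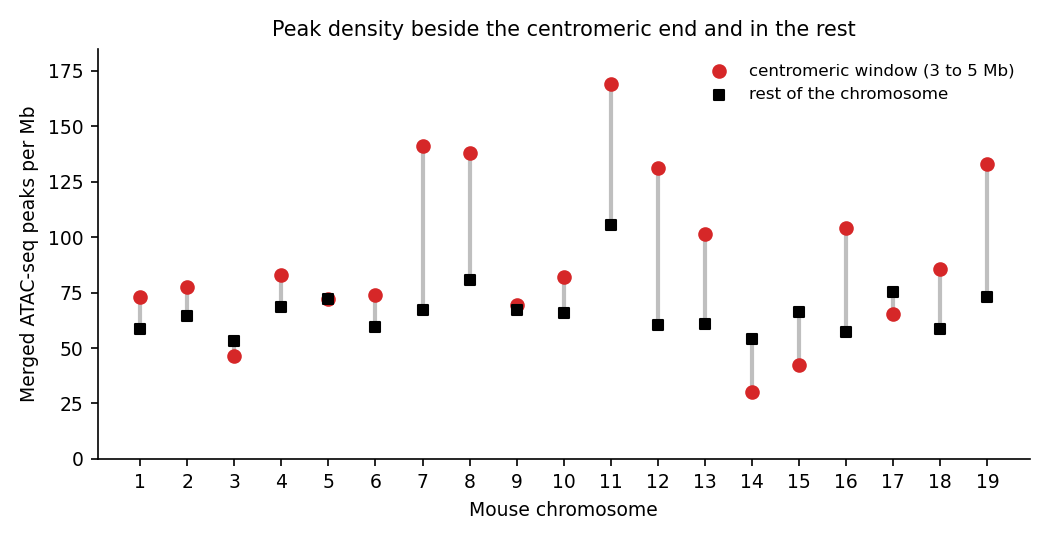
Merged ATAC-seq peaks per Mb (vertical axis) on chromosomes 1 to 19 (horizontal axis), in the window from 3 to 5 Mb (red circles) and in the rest of the same chromosome (black squares), with a grey line joining the pair; there are no error bars because each chromosome gives 1 value. The red circles run from 30 to 169 and lie above the square on 14 chromosomes, while chromosomes 3, 5, 14, 15 and 17 have the circle at or below it.

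Along the chromosome, density was highest next to the unsequenced DNA and lower a few Mb further in. The median chromosome had 104 peaks per Mb in the first 500 kb after 3 Mb, 80 in the second, 74 in the third and 88 in the fourth. It had 68 in the step after the window and 46 between 4 and 4.5 Mb past the 3 Mb position. The profile was not a smooth decline, as the median rose again to 94 between 5.5 and 6 Mb past that position. Individual chromosomes scattered widely, from 30 on chromosome 14 to 178 on chromosome 7 in the first step alone. No test was made of the profile.

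**Figure D2:**
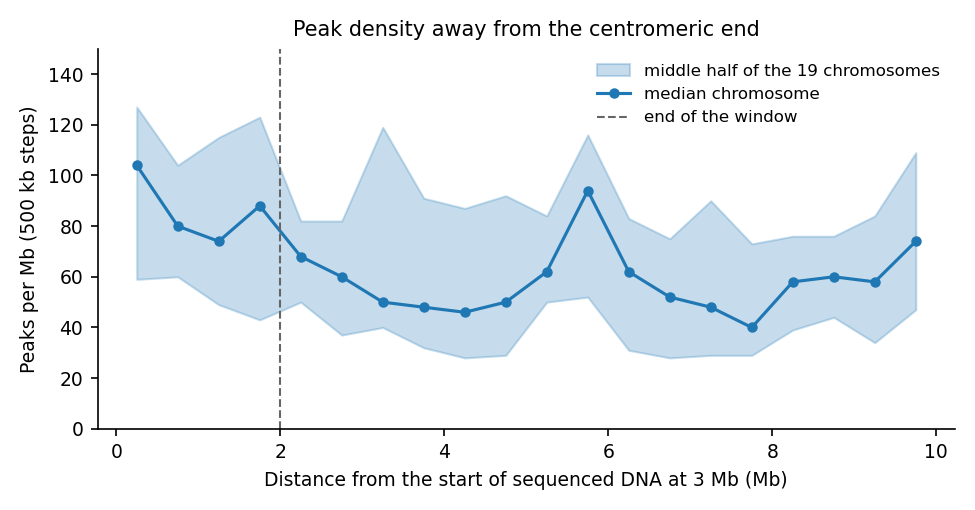
Peaks per Mb in steps of 500 kb (vertical axis) against the distance from the 3 Mb position (horizontal axis, Mb); the line with points is the median of 19 chromosomes, the band their interquartile range, and the dashed line the end of the window at 2 Mb. The median starts at 104 in the first step, reaches 46 between 4 and 4.5 Mb and comes back to 94 between 5.5 and 6 Mb.

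Within the windows, 14 chromosomes had 0 empty bins of 100 kb, and chromosomes 5, 10, 11, 14 and 17 had 1 each. The fullest 100 kb bins held 26 peaks on chromosome 7, starting 200 kb past the 3 Mb position, 25 on chromosome 11 at 100 kb, and 24 each on chromosomes 1 and 17. On chromosome 17 those 24 peaks filled the first 100 kb, where 18 of them lay between genes, and their median width was 664 bp. The longest stretches without a peak were 160.7 kb on chromosome 17 (3879364 to 4040068), 148.1 kb on chromosome 14 and 143.7 kb on chromosome 5, against 41.6 kb on chromosome 8. On chromosomes 2, 10 and 11 the longest such stretch was the one that began at 3 Mb. Gaps of the assembly were not looked up, so an empty bin or stretch can hold unassembled DNA. Peaks covered a median of 5.61% of a window (2.89% on chromosome 15 to 12.95% on chromosome 11) and 4.601% of the rest.

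**Figure D3:**
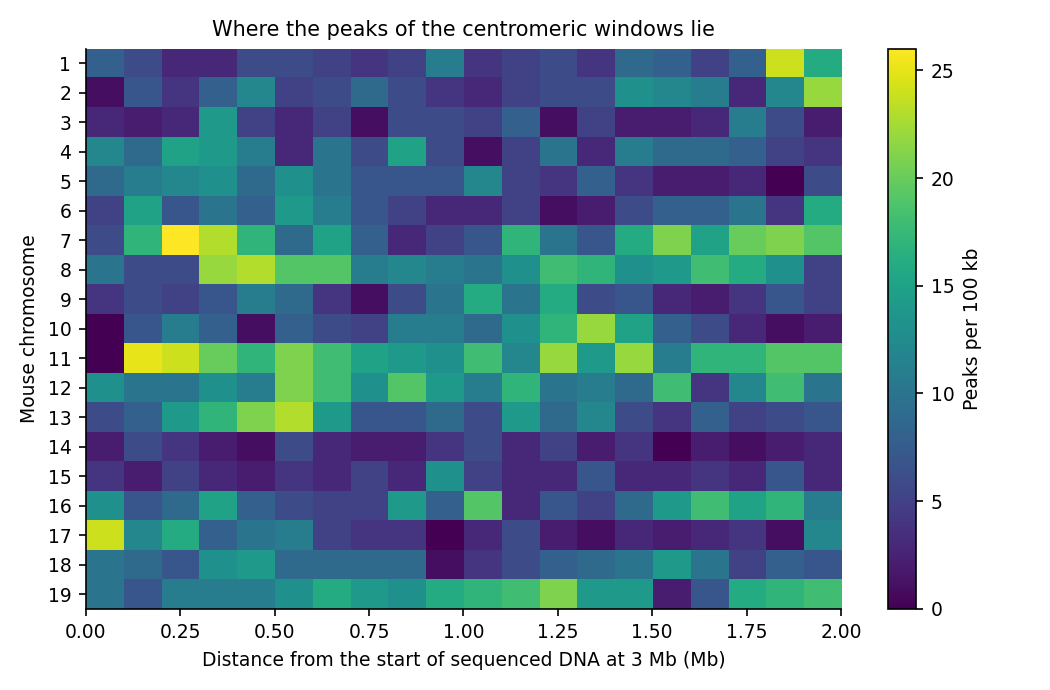
Number of peaks per 100 kb (colour scale) in the centromeric windows, with chromosomes 1 to 19 as rows and the distance from the 3 Mb position (Mb) on the horizontal axis. Chromosomes 7, 8, 11, 12 and 19 are filled over most of their length, chromosome 14 has at most 6 peaks in any bin, chromosome 15 is low except for a bin of 13, and chromosome 17 has 24 peaks in its first bin.

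The first peak lay within 10 kb of the 3 Mb position on 11 of 19 chromosomes, and as close as 0.031 kb on chromosome 18. On chromosomes 10 and 11 it came after 117 and 100.2 kb, where unassembled DNA was not told apart from DNA without a peak. The nearest annotated gene to the first peak was a pseudogene on 11 chromosomes, among them 4 of vomeronasal type 1 receptors, and a long noncoding RNA on 4. These pseudogenes were, from chromosome 4 on, Vmn1r-ps2, V1rg10, Vmn1r-ps5, Gm18198, Gm3318, Pisd-ps1, Gm18244, Gm8598, Gm9614, Gm10232 and Vmn1r-ps151, and the noncoding RNAs Gm30220, Gm41084, Gm35912 and Gm38527. The others were the small nuclear RNA Gm26206, the transfer RNA n-TKctt9, the microRNA Mir101c and, 24.4 kb from the first peak of chromosome 2, the protein-coding gene Fam171a1. With the first 100 kb left out, a setting chosen after seeing the data, the density difference was 0.34 on the log2 scale.

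Gene content varied widely between windows, with no common direction. The windows had 11.2 ± 9.42 protein-coding genes per Mb (mean ± SD, n = 19) and the rest 8.59 ± 2.46, with more genes in the window on 8 chromosomes and fewer on 11 (mean difference -0.01 ± 0.24 SE in log2(genes per Mb + 1), adjusted exact permutation p = 0.963). Chromosome 19 had 67 such genes in its window, chromosome 7 had 63, and chromosome 3 had a single gene, Hnf4g. The 6 windows with fewer than 5 genes per Mb had a median of 67.5 peaks per Mb, against 35 in the 506 other windows of that class. The 6 windows with 15 or more genes per Mb had a median of 135.5, against 110 in 201 others. Against the 5 windows of the same chromosome closest in gene number, the centromeric window was denser on 16 of 19 chromosomes, with a mean difference of 0.22 on the log2 scale that did not pass (adjusted exact permutation p = 0.211).

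**Figure D4:**
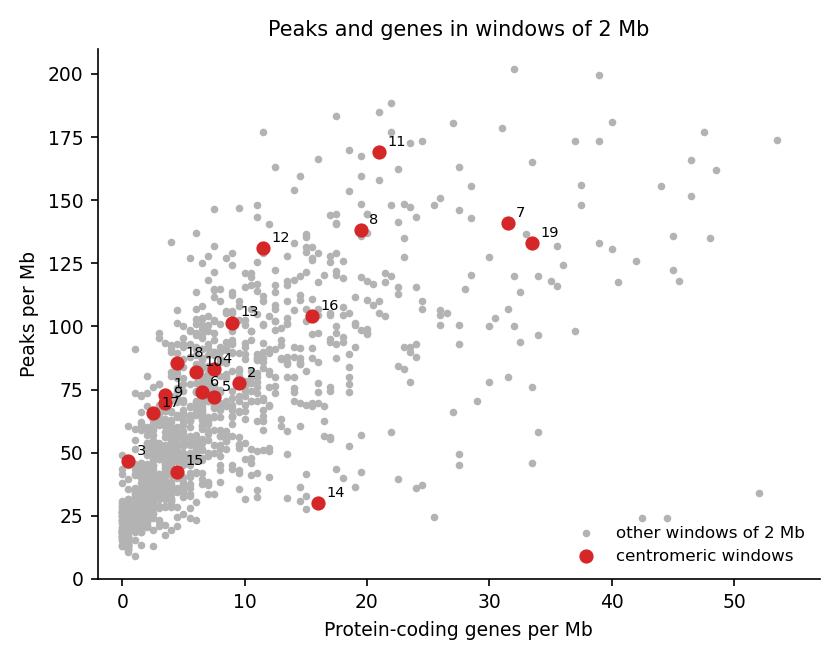
Peaks per Mb (vertical axis) against protein-coding genes per Mb (horizontal axis) in windows of 2 Mb; red points are the 19 centromeric windows, labelled with their chromosome, and grey points the 1173 other windows of chromosomes 1 to 19. Chromosomes 7, 11 and 19 lie at the upper right, and chromosome 14, with 16 genes and 30 peaks per Mb, lies near the lower edge of the cloud at its gene number.

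Peaks away from gene ends, those in gene bodies included, gave a difference of similar size that did not pass the adjusted test either. With peaks kept only where every gene end was over 2000 bp away, the windows had 68.7 ± 22.8 peaks per Mb (SD, n = 19) and the rest 51.3 ± 8.43, higher in the window on 16 chromosomes and lower on 3 (14, 15 and 17). Chromosome 11 had the most, 224 such peaks in its window, and chromosome 14 the fewest, 40. The mean difference was 0.34 ± 0.11 (SE) on the log2 scale (exact permutation p = 0.00973, adjusted p = 0.0607). It was 0.41 without chromosome 14 (adjusted exact p = 0.00352) and 0.39 without chromosome 15 (adjusted exact p = 0.0225). With each of the 19 chromosomes left out of this result in turn, only these 2 cases passed. The p values of the other results were kept from all chromosomes in that adjustment. The last 2 Mb of the same chromosomes had 73.6 ± 37.6 peaks per Mb. The centromeric window was denser than that distal end on 12 chromosomes, less dense on 6 and equal on chromosome 6, a difference of 0.34 ± 0.19 (SE) that did not pass (adjusted exact permutation p = 0.211). The difference was largest on chromosome 12, at 1.58 on the log2 scale, and lowest on chromosome 15, at -1.75. With 1 chromosome left out in turn, it passed only without chromosome 15 (0.45, adjusted exact p = 0.0396). The distal end of chromosome 15 had 145.5 peaks per Mb against 42.5 in its window.

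The typical width of a peak did not differ beyond the spread between chromosomes. Median width was 590 ± 42.6 bp in the windows and 578 ± 15.0 bp in the rest (SD, n = 19), larger in the window on 12 chromosomes and smaller on 7 (mean difference 0.03 ± 0.02 SE in log2 width, adjusted exact permutation p = 0.290). It ran from 502 bp on chromosome 3 to 656 bp on chromosome 7. Over all members, widths ran from 198 to 4498 bp.

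Very wide peaks made up a larger share in the windows, a comparison chosen after seeing the data and given without a test. Of the members, 98 (2.85%) were wider than 2000 bp, against 1.75% in the rest, and the share was higher in the window on 14 of 19 chromosomes. Between genes it was 2.50% against 1.05%, and at gene ends 6.03% against 5.38%. Chromosome 14 alone held 16 of the 98, which is 26.7% of its 60 peaks. Without chromosome 14 the share was 2.43% over all members against 1.753% in the rest, and 2.47% against 1.04% between genes. At gene ends the order turned without chromosome 14, with 13 of 386 (3.37%) in the windows and 5.37% in the rest.

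The 10 widest members were of mixed kinds. The widest, 4498 bp on chromosome 11 (3100187 to 3104684), was also the first peak of that chromosome, and lay 27.2 kb from Sfi1, a gene for a centrosomal protein. The next, 4491 bp on chromosome 18 (3115496 to 3119986), lay 2.51 kb from the vomeronasal receptor gene Vmn1r238. A peak of 3590 bp (chromosome 5, 3341202 to 3344791) covered the promoter of Cdk6, a kinase of the cell cycle, 1 of 3526 bp the start of Cpt1a, which brings fatty acids into mitochondria, and 1 of 3253 bp the start of Tfap4. Others stood far from protein-coding genes: 87.6 kb from Vmn1r2 on chromosome 4, 176 kb from Gdi2 on chromosome 13, and 358 kb from Olfr161 on chromosome 16. The remaining pair lay within Sfi1 (3526 bp) and within the predicted gene Gm32966 on chromosome 14 (3067 bp).

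By midpoint, 398 members (11.6%, 95% Wilson interval 10.6 to 12.7, counting error only) lay within 500 bp of an annotated gene end, against 11.5% of all peaks of chromosomes 1 to 19. A further 1558 (45.3%) lay in gene bodies and 1481 (43.1%) between genes, against 50.6% and 37.9% in the rest. Taken per chromosome, the gene-end share was 10.8 ± 4.65% in the windows and 11.5 ± 1.18% in the rest, higher in 7 and lower in 12 (difference -0.66 ± 1.03 SE percentage points, adjusted exact permutation p = 0.612). Chromosome 19 had 20.3%, chromosome 14 had 20% and chromosome 3 had 3.23%.

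Of the 427 protein-coding genes in the windows, 335 had a peak that reached to within 500 bp of their annotated start or finish. Neighbouring genes can share a peak. The share was 78.5% (Wilson interval 74.3 to 82.1, counting error only), against 72.8% of all protein-coding genes of chromosomes 1 to 19. Over the 18 chromosomes with at least 3 such genes the share was 78.7 ± 17.2% in the window and 73.6 ± 6.16% in the rest, a difference of 5.13 ± 3.81 (SE) percentage points that did not pass (adjusted exact permutation p = 0.290). All 23 genes on chromosome 12 and all 7 on chromosome 9 had a peak, as did 97.6% on chromosome 11 and 95.5% on chromosome 19. The lowest shares were 38.9% on chromosome 13 and 40.6% on chromosome 14. Among other annotations of the windows, 94 of 193 long noncoding RNAs (48.7%) and 65 of 226 pseudogenes (28.8%) had a peak at an end, against 45.6% and 19.9% over chromosomes 1 to 19. Of 22 microRNA genes, 9 of them in 1 cluster, 10 had a peak at or near an end, against 31.3% over chromosomes 1 to 19.

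All 9 chromatin regulators on the list had a peak at an end, against the 72.8% background and 92.1% of the 38 listed chromatin genes elsewhere on chromosomes 1 to 19. The list and those of the next paragraphs were put together with the place of many of these genes known, so their counts are a description. Suv39h2 (chromosome 2, 3455815 to 3474986) had a peak of 1682 bp that covered the whole promoter printed above. The cells are labelled as lacking Suv39h2, and a peak over its start says nothing of the deleted part. The genes of the H4 lysine 20 methyltransferases KMT5B and KMT5C were open at the start, Kmt5b under 2098 bp (chromosome 19, 3767076 to 3769173) and Kmt5c under 1228 bp (chromosome 7, 4739376 to 4740603). Dnmt3a, a de novo DNA methyltransferase, had 2999 bp (chromosome 12, 3805980 to 3808978) over 2 of its promoters in the table and 1218 bp over the third, with 21 peaks in its body. Its peak at an annotated end was 263 bp wide and lay 0.165 kb past the far end. Morc2a, which acts with the HUSH silencing complex, had a start peak of 1633 bp.

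The other chromatin genes had peaks of over 2000 bp. Kdm2a, a demethylase that binds CpG islands, had 2262 bp, Crebbp, a histone acetyltransferase, 2008 bp, Asxl2, a Polycomb-associated protein, 2279 bp, and Ncoa1, a coactivator of nuclear receptors, 2407 bp.

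All 11 listed transcription factor genes had a peak at an end, against 80% of 10 elsewhere and 72.8% of all protein-coding genes of chromosomes 1 to 19. Sox17, a factor of endoderm, had a peak of 1361 bp, Hnf4g, a nuclear receptor of the gut, 1211 bp, Plag1, a zinc finger factor of growth, 1717 bp, and Zbtb2 2269 bp. Glis2 had 2416 bp, Tfap4 3253 bp, Crem, a factor of the cyclic AMP response, 1790 bp, and Patz1 893 bp. Some cases rested on other places than a wide start peak. Esr1, the estrogen receptor, had 434 bp lying 0.072 kb from its start, and Npas4, an activity-regulated neuronal factor, had 530 bp at its far end and 1214 bp over part of the promoter in the table. Tbx10 had its peak, 1674 bp, 0.254 kb past its far end, and none over the promoter printed above.

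Of 19 listed signalling genes, 18 had such a peak, against 72.8% of all protein-coding genes, and the list had only 1 gene elsewhere on these chromosomes, which had a peak too. Insr, the insulin receptor, was covered by 1985 bp, Lrp5, a Wnt coreceptor, by 1447 bp, Fzd1, a Wnt receptor, by 2340 bp and Ghr, the growth hormone receptor, by 844 bp. Bambi, a decoy receptor of the TGF-beta family, had 1562 bp, Map3k8 1752 bp, Lyn, a Src-family kinase, 1677 bp, Krit1 1748 bp, Nf2 1359 bp and Limk2 1381 bp. Clcf1, a cytokine of the IL-6 family, had 2140 bp and Gal, the neuropeptide galanin, 905 bp. Genes of restricted tissues were open too: Pomc, the pituitary hormone precursor, under 846 bp, Calcr, the calcitonin receptor, under 1615 bp, and Mos, the oocyte kinase, under 1068 bp. The adenylyl cyclase genes Adcy3 and Adcy9 had 1883 bp and, over the table's promoter, 2131 bp. Ucn3, a peptide hormone of the pancreas and brain, was the exception, with its nearest peak 6.27 kb away. Lif, which encodes the cytokine that keeps these cells pluripotent, was added after its values were seen. It had 353 bp lying 0.214 kb from its annotated start (chromosome 11, 4257568 to 4272514).

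An imprinted domain of chromosome 6 lies in a window, and 4 of 5 listed imprinted genes there (Calcr among them) had a peak at an end. The share was 55.6% of 9 listed genes elsewhere and 72.8% of all protein-coding genes of chromosomes 1 to 19. Sgce and Peg10, a gene derived from a retrotransposon, are neighbours that share a peak of 2726 bp (4746754 to 4749479) over their facing ends, the widest of that window. Casd1 next to them had 1848 bp. Tfpi2 had no peak at an annotated end, but 1 of 1105 bp covered the whole of its downstream promoter in the table, 5.08 kb inside the lower-coordinate end. That promoter holds 12 CpG, against 2 in the upstream promoter printed above.

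Gene families were at opposite ends of the range, in the windows as elsewhere, set against 72.8% of all protein-coding genes of chromosomes 1 to 19. All 11 genes of translation, mitochondria and the proteasome had a peak (95.4% of 259 elsewhere), for example Mrpl15 (868 bp), Rps20 (1123 bp), Ndufa3 (1105 bp) and Rps9 (898 bp). All 7 Zfp genes, most of which encode zinc finger DNA-binding proteins, had a peak (92.1% of 381 elsewhere), among them Zfp579 (1388 bp), Zfp628 (1009 bp), Zfp358 (1233 bp) and Zfp958 (2324 bp). In contrast, 1 of 5 chemosensory receptors had one (4.84% of 1447 elsewhere), Olfr15 with 642 bp, while Vmn1r2, Vmn1r3, Vmn1r238 and Olfr161 had their nearest peaks 1.72, 3.397, 2.51 and 19.6 kb away. Of the listed multi-copy families, 5 of 13 genes had a peak (21.2% of 193 elsewhere). Aldh3b1 had 1637 bp, Akr1c13 458 bp, Akr1c19 1080 bp and Aldh3b3 272 bp, whereas the nearest peaks of Sdr16c5, Sdr16c6, Akr1c14 and Akr1c18 were 20.3, 6.27, 1.67 and 0.577 kb away.

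Immune receptor clusters, singled out after their values were seen, had few peaks at gene ends, set against 72.8% of all protein-coding genes. On chromosome 7 all 10 genes of the Pira, Pirb, Lilr, Lair, Oscar, Tarm, Ncr and Gp6 group, surface receptors of blood cells, lacked a peak at an end, although the 911 kb they span held 82 peaks (89.98 per Mb, against 141 in the whole window). In 1 of these 10, Lair1, a peak lay over the promoter in the table, which is inside the annotated gene. On chromosome 8, 1 of 7 Cd209 genes, lectins of dendritic cells and macrophages, had a peak, in a stretch with 111.6 peaks per Mb, against 138 in the whole window. On chromosome 13, 3 of 9 Akr1 genes, aldo-keto reductases of steroid and xenobiotic metabolism, had one.

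The window of chromosome 14 had a layout of its own. All 32 of its protein-coding genes are predicted or clone-named, and 13 had a gene-end peak. For 12 of those 13 that peak was wide, from 2061 to 2838 bp, and the 12 genes used 11 distinct peaks spread along the window. Examples, picked after their values were seen, are Gm2956 with 2656 bp (3331074 to 3333729), Gm3173 with 2554 bp (4497753 to 4500306) and Gm3264 with 2577 bp (4854078 to 4856654). Among the 19 genes without a peak, 10 had their nearest peak between 7.50 and 8.09 kb away and 3 between 35.5 and 35.8 kb away. Similar distances thus recurred from gene to gene, a pattern picked out after seeing the data. The sources used here do not say how reads that match several places were treated, and the part of such reads in these values was not tested.

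The miR-290 cluster, the microRNA cluster characteristic of embryonic stem cells, lies in the window of chromosome 7. Its microRNAs promote the cell cycle of stem cells largely through a shared seed, and 5 of its mature sequences are shown with the seed (bases 2 to 8) in capitals (RefSeq, GRCm38.p6).
miR-291a-3p: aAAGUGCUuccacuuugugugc
miR-294-3p: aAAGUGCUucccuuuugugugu
miR-295-3p: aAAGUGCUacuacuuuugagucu
miR-291b-3p: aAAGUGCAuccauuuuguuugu
miR-290a-3p: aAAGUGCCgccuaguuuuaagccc
The first 3 share the seed AAGUGCU, and the other 2 have the seeds AAGUGCA and AAGUGCC. The 9 annotated genes of the cluster span 2.22 kb (3218626 to 3220841). A peak of 204 bp (3219498 to 3219701) touched Mir291b, and 1 of 2030 bp (3220556 to 3222585) covered Mir294 and Mir295 and ran on past the cluster. Upstream, the nearest peak was 225 bp wide (3217609 to 3217833). With 10 kb on either side the region held 6 peaks. The table held hairpins for 18 of the 22 microRNA genes of the windows, and the others of these 18 with a peak over the hairpin were Gm23450 (miR-935) on the same chromosome and Mir6985 on chromosome 19, whereas Mir489 and Mir653, in the Calcr gene on chromosome 6, lay 19.2 and 19.8 kb from a peak.

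Where the start of a gene is known with its strand, openness went with CpG content inside and outside the windows alike. The promoter table, which was used for chromosomes 1 to 17 and 19, held 339 of the 427 genes, and 249 of them had a peak over at least 1 promoter. Counted as promoters placed in the windows, 308 of 449 lay under a peak, against a background of 69% for all promoters of protein-coding genes in the table on these 18 chromosomes. Open promoters of the windows had a median of 18 CpG in 300 bp and closed ones 2, against 21 and 2 in the rest. With 21 or more CpG, as in the 3 open examples printed above, 131 of 131 promoters in the windows and 99.6% of 6858 in the rest were open. With 0 to 5 CpG the shares were 17.2% of 145 and 17.4% of 6163, and with 6 to 12 CpG they were 77.1% of 83 and 71.8% of 3213. Promoters of 1 gene can overlap and share a peak, so these shares carry no test. Per chromosome, over 16 chromosomes with at least 3 such genes, the share of genes with an open promoter differed from the rest by 0.83 percentage points (adjusted exact permutation p = 0.963).

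**Figure D5:**
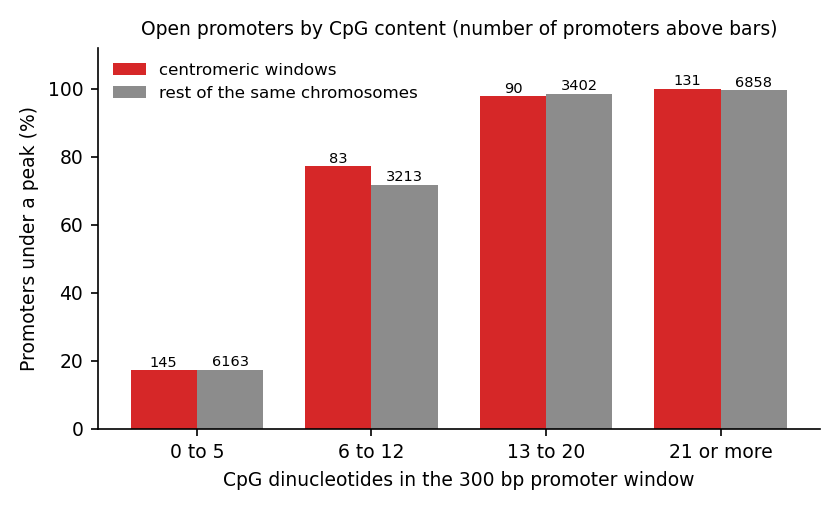
Percentage of promoters of protein-coding genes that lie under a peak (vertical axis, from 0) by number of CpG dinucleotides in the 300 bp promoter window (horizontal axis), for the centromeric windows (red) and the rest of the same 18 chromosomes (grey; chromosome 18 not analysed here), with the number of promoters above each bar. Both sets rise together, from 17.2% and 17.4% at 0 to 5 CpG to 100% and 99.6% at 21 or more.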

How the data were processed

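The deposited file is 1 list of merged ATAC-seq peaks with chromosome, start and end, pooled over 18 libraries. Per the submitters' processing notes, Trimmomatic 0.36, Bowtie2 2.4.2 and MACS2 2.2.7.1 were used, with the builds mm10 and GRCm38. The peak threshold, the merging, and the treatment of duplicates, multiply placed reads and blacklisted regions are not given in the sources used here, and such choices could add or remove peaks beside repeated DNA.

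Genes came from a RefSeq table of GRCm38.p6, without strand, after 333 genes with scaffold coordinates were left out (46709 remained, 20558 protein-coding). Starts with strand came from a RefSeq promoter table. A window covered 3 to 5 Mb and the rest ran to the last peak of the chromosome. Densities were compared as log2(value + 1). Each of 7 results was tested by an exact two-sided sign-flip permutation test over chromosomes (524288 sign patterns for 19), with Benjamini-Hochberg adjustment and a threshold of 0.05. Only the density test was also run on simulated peak counts, which had less spread between chromosomes than these data. Calculations ran in Python 3.11.15 with scipy 1.17.1, numpy 2.4.6 and pandas 2.3.3.

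The text names every member of the chromatin, transcription factor, signalling and imprinted lists, up to 4 genes with and 4 without a peak of each other list in order of position, the genes nearest the 10 widest peaks and nearest each first peak, and the chromosomes highest and lowest in each result. Other genes were singled out after their values were seen. Members and lists were chosen with earlier results of these data known. Alternatives changed the window, the windows compared with, the peak width, the gene-end distance and the gene set, and left out each chromosome in turn. For each alternative, only the p value of the result concerned was replaced before adjustment. The p values of the other results stayed at their main setting, so adjusted values would differ if all results were changed together.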

Additional observations from a re-analysis of the deposited data

How the results depend on the processing

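No paired analysis was possible because the peak list has no column for any library, so replicate numbers cannot enter a fit. The peak density difference was positive under all settings tried. It passed with the window ending at 4 Mb (0.35), with the window started at the first gene or peak (0.35), against the median of other windows (0.47), and with chromosome 14 left out (0.39). It did not pass with the window ending at 6 Mb (0.24, adjusted exact permutation p = 0.133) or 10 Mb (0.12, p = 0.211), for peaks wider than the median (0.35, p = 0.0886), against windows nearest in gene number (0.22, p = 0.211) or without the first 100 kb (0.34, p = 0.0660). Leaving out each chromosome in turn gave 0.29 to 0.39. The difference away from gene ends passed with the window ending at 4 Mb (0.39) or 10 Mb (0.18), from the first gene or peak (0.36) and against the median of other windows (0.44). It did not pass with the window ending at 6 Mb (0.26, adjusted exact permutation p = 0.0737), for peaks wider than the median (0.36, p = 0.133), against windows nearest in gene number (0.23, p = 0.192) or without the first 100 kb (0.34, p = 0.0607), and leaving out a chromosome gave 0.30 to 0.41. Against the distal end, leaving out a chromosome gave 0.27 to 0.45, and with 10 Mb as the border the direction turned (-0.10, adjusted exact permutation p = 0.633). The median width turned at a border of 4 Mb (-0.00093 in log2 width, adjusted exact permutation p = 0.977). Gene density turned positive with genes of any kind (0.13) and ranged from -0.094 to 0.12 with a chromosome left out, and with the border at 10 Mb it was -0.33, lower on 15 of 19 chromosomes (adjusted exact permutation p = 0.134). The shares at gene ends kept their direction and did not pass in any setting, with adjusted exact permutation p from 0.112 for peaks and 0.0851 for genes upwards. The causes of these changes were not tested. Without counts, depth and replicate error cannot be given, and assembly gaps inside the chromosomes were not removed.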

Other observations

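Short sequence motifs, TATAAA aside, were more frequent in open than in closed promoters, as CpG content was higher there. Each was searched as exact letters on both strands of the 300 bp promoters. GGGCGG, the GC box bound by Sp-family factors, was in 193 of the 308 open promoters of the centromeric windows (62.7%) and in 13 of the 141 closed ones (9.22%), with 64.9% and 7.36% in the rest. These are promoters of protein-coding genes, of which, open and closed together, 45.9% in the windows and 47.1% in the rest held it. Shares "of all" are over the 31396 promoters of the table on chromosomes 1 to 17 and 19. They include other kinds of gene and are not a like background. For GGGCGG that share was 35.98%. CCGGAAG, an ETS-type motif, was in 15.3% and 2.84% of the open and closed promoters of the windows (9.00% of all). TATAAA, the TATA box, went the other way, in 6.49% and 18.4% (13.6% of all). CACGTG, the E-box, was in 9.74% and 2.84% (7.14% of all). TGACGTCA, the cyclic AMP response element, was in 12 open promoters and 0 closed ones (1.83% of all), and the promoter of Suv39h2 held it. A YY1-type motif was in 5 open promoters, that of Suv39h2 among them, and 0 closed ones (0.631% of all), and an NRF1-type motif in 2 and 0 (0.968% of all). In the rest, CCGGAAG was in 16.6% of open and 1.33% of closed promoters, CACGTG in 10.0% and 3.19%, and TATAAA in 6.55% and 26.6%. TGACGTCA was there in 3.05% and 0.592%, against 3.90% of the open promoters of the windows. For the YY1-type motif the open shares were 1.62% in the windows and 1.28% in the rest, and for the NRF1-type motif 0.649% and 1.96%. The GC box overlaps CpG by its letters, matches are not binding sites, and no test was made.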
